A study of Aquarana catesbeiana with 18 samples.

Results

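Back skin and liver of wild-type American bullfrogs (Aquarana catesbeiana) were compared by RNA sequencing, to find the genes and annotated pathway groups that mark each organ. The comparison used 6 of the 18 libraries of the study, the 3 labelled wild-type skin and the 3 labelled wild-type liver, chosen by their tissue and genotype labels alone. The other 12 libraries were skin and liver of animals labelled albino (spelled abino there) and the eyes of both genotypes, with 3 libraries in each group. Total RNA had been extracted with TRIzol and made into libraries with a VAHTS Universal V10 kit. The labels give no age, sex or agent for any group, and they do not say whether libraries of a group, or libraries with the same number, came from separate animals, so the p-values below measure the spread between libraries only.

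Frog skin is a thin epidermis of keratin-filled cells over a collagen-rich dermis that holds mucous and granular glands, pigment cells, nerves, vessels and smooth muscle. It takes up water and sodium, secretes mucus and defence peptides, and sheds its outer cell layer. The liver is mostly hepatocytes, which secrete most plasma proteins, make urea and bile acids, store and release glucose and break down amino acids and foreign compounds, and it also holds lining endothelium, resident macrophages and developing blood cells.

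The deposited counts summed to between 35718438 and 38612184 reads per library, and between 19584 and 20216 genes had a count in a skin library against 18175 to 18561 in a liver library. The 10 genes with the most reads took 15.2% to 16.0% of each skin library and 25.7% to 26.2% of each liver library. Library labels were checked against defining genes: albumin, which hepatocytes make, had 10, 5 and 13 counts in skin libraries 1 to 3 and 3254809, 3386602 and 3329861 counts in liver libraries 1 to 3, and annotated keratins, the filaments of epithelial cells, took 10.2%, 11.2% and 9.40% of the skin reads against 0.0314%, 0.0215% and 0.0259% of the liver reads. Liver library 3 carried traces of more skin genes than the other liver libraries: of the 100 skin markers with the highest level, defined below, 91 had a count there, against 50 and 47 in liver libraries 1 and 2.

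Skin and liver differed over a large share of the transcriptome. Of 16919 genes with enough counts to test, 7519 (44.4%) differed at an adjusted p under 0.05 (edgeR's quasi-likelihood test, two-sided, Benjamini-Hochberg adjustment), of which 4282 (25.3% of those tested) were higher in skin and 3237 (19.1%) were higher in liver. Levels are given below as CPM, counts per 1e+06 of the TMM-scaled library total, in the order of libraries 1, 2 and 3, and differences as log2 of skin minus liver with the standard error of the fit. The median difference over all tested genes was 0.08, against which the median of each gene list below is to be read. The balance between organs moved with the scaling: with plain library totals in place of TMM factors the median moved to 1.00, 10570 genes were called, and the share of calls that were higher in skin rose from 56.9% to 83.4%.

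A stricter rule was used to name tissue markers: an adjusted p under 0.05, a difference of at least 5 on the log2 scale, at least 10 CPM on average where the gene was higher, and no overlap between the 3 libraries of each organ, which 57.2% of tested genes met. It gave 679 skin markers (4.01% of tested genes) and 550 liver markers (3.25%). In all 3 liver libraries together, 179 of the skin markers had 0 counts, and 128 of the liver markers had 0 counts in all 3 skin libraries. Together the skin markers took 20.5%, 23.2% and 21.8% of the skin reads, whereas the liver markers took 53.1%, 51.7% and 47.5% of the liver reads. Many carried only a locus number (407 of skin, 342 of liver), 107 and 56 of them had an uncharacterised product, and 59 skin and 17 liver markers were annotated as non-coding, of 624 non-coding genes tested. The skin marker with the highest FPKM of all was such a gene, LOC141106191, uncharacterised and non-coding, with 5784, 5598 and 9983 CPM in skin and 0, 0.146 and 13.3 CPM in liver.

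**Figure D1:**
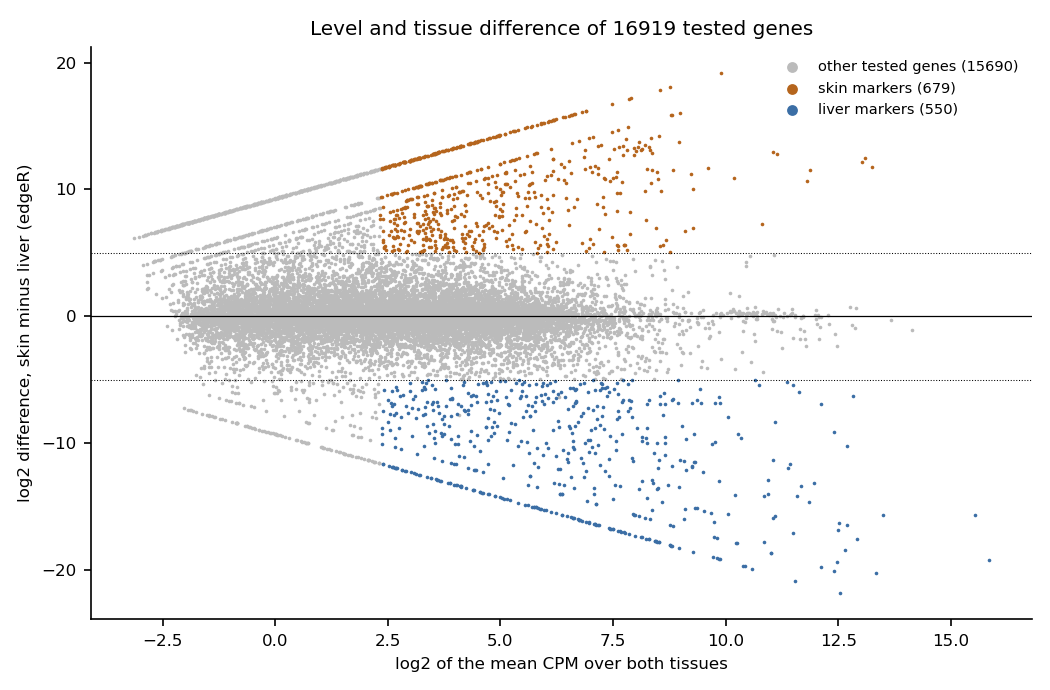
The log2 difference of skin minus liver is plotted against the log2 mean CPM over both organs, with 1 point per tested gene (16919), skin markers in orange (679) and liver markers in blue (550). Dotted lines mark a difference of 5; points on the straight outer edges are genes with 0 counts in 1 organ, whose fitted value is set by the prior count and is not a measured fold.

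Keratins dominated the skin libraries. Of 59 genes annotated as keratins, 39 were tested, of which 35 were higher in skin and 2 in liver, and 24 were skin markers. Their summed level was 66210, 75120 and 83300 CPM in skin and 442, 303 and 336 CPM in liver. Skin library 3 was highest by CPM but had the smallest keratin share of reads, 9.40% against 10.2% and 11.2%. Its TMM factor was 1.13, against 1.53 and 1.49 for skin libraries 1 and 2. The order of skin libraries by CPM thus depends on the scaling, here and for single keratins. The median difference of the tested keratins was 11.73, or 9.40 with the genes that had 0 liver counts set at their lower bound. The skin marker with a named product and the highest skin level was LOC141114336, a type I keratin resembling keratin-3, at 13382 ± 1206 FPKM (mean ± SD, n = 3, the deposited reads per kilobase per 1e+06). Its level was 16122, 19563 and 22421 CPM in skin and 0.0729, 0 and 16.5 CPM in liver. Skin was far above liver in every library, and liver library 3 stood above the other liver libraries. The difference was 11.77 ± 2.62 (adjusted p = 0.00924), and 18.90 without liver library 3. A pair of type II cochleal-like keratins were the next keratins by level, LOC141127267 with 15634, 17317 and 19377 CPM in skin against 0.0364, 0.0365 and 9.20 CPM in liver, and LOC141127266 with 833590, 903918 and 755542 counts against 3, 3 and 313. Type I and type II keratins pair to build epithelial filaments, and the type II pair had 8551 ± 698 and 8208 ± 858 FPKM in skin (mean ± SD, n = 3). The genes that the annotation pairs with the symbol KRT5, the basal epidermal keratin of mammals, showed the same pattern at lower levels. LOC141127260 had 4987, 4907 and 3659.7 CPM in skin and 0.0364, 0.0365 and 1.76 CPM in liver, and LOC141127258 had 519, 722 and 459 CPM in skin and 0, 0 and 0.169 CPM in liver.

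Both keratins called higher in liver were type I genes that adjoin each other. The first, LOC141114325, had 0 counts in every skin library and 3583, 2844 and 2822 counts in liver, so it was at least 5495-fold higher in liver, against a floor of 3 counts over the 3 skin libraries. It lies in a stretch of 32 keratin genes in the RefSeq gene order, between LOC141114322 and LOC141114323, and 13 of the genes in that stretch were skin markers while it was the only liver marker. The second was its neighbour LOC141114322, with 2, 1 and 0 counts in skin and 18, 14 and 42 in liver. KRT18, a keratin of simple epithelia, had 30.4, 31.1 and 35.8 CPM in skin and 36.6, 59.6 and 53.8 CPM in liver. It did not pass the test (-0.62 ± 0.23, adjusted p = 0.0608), and its sign turned with library totals and with limma on FPKM. LOC141127270, resembling keratin 8, the usual partner of keratin 18, had 109.5, 61.4 and 174 CPM in skin and 187, 80.7 and 69.8 CPM in liver, with overlapping groups and no difference past the test (0.03 ± 0.50). Keratin genes are near copies of each other and the sources used here do not give how reads that map to several places were handled, so the split between neighbouring keratins is uncertain.

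**Figure D2:**
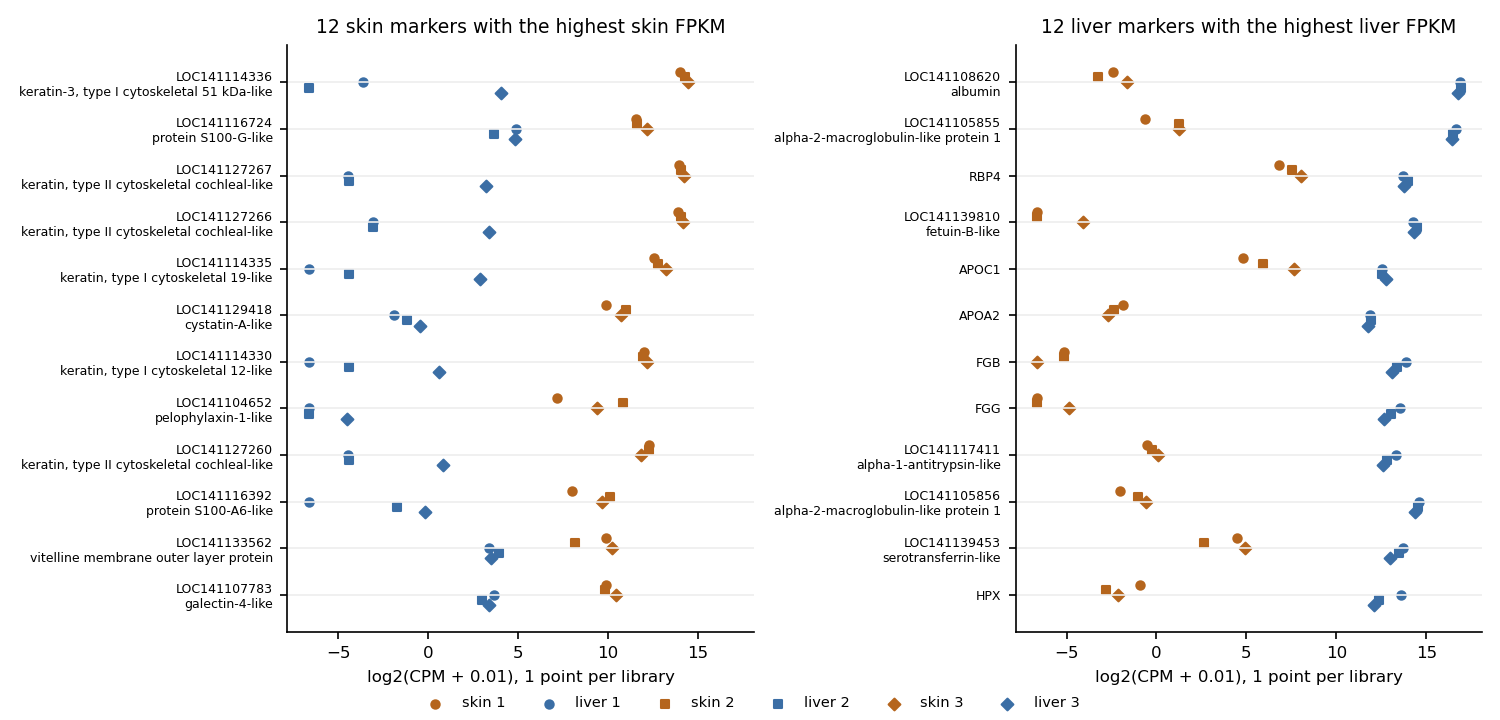
The 12 skin markers (left) and 12 liver markers (right) with a characterised product and the highest mean FPKM in their own organ are plotted as log2(CPM + 0.01), with 1 point per library, skin in orange and liver in blue and a symbol for each library number. In every gene shown the 3 skin points and the 3 liver points are apart, which the marker rule itself requires. The liver 3 diamonds lie right of the other liver points for the keratins.

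Proteins of the cornified envelope, the cross-linked shell under the membrane of the outermost epidermal cells, were also higher in skin. Of 47 listed symbols for keratins and envelope proteins, 11 were in the table and 9 were tested; 6 were higher in skin and 2 in liver, with a median of 3.65. Counting genes whose product is described as like a listed member, 44 of 52 were higher in skin and 4 in liver. TGM1, the transglutaminase that cross-links the envelope, had 12354, 15449 and 11519 counts in skin and 524, 321 and 305 counts in liver (4.26 ± 0.33, adjusted p = 7.80e-05). Envoplakin and periplakin are plakins on which the envelope is built. EVPL had 106, 144 and 157 CPM in skin and 0.546, 0.694 and 0.846 CPM in liver (7.59 ± 0.32, adjusted p = 1.63e-05). PPL had 256, 403 and 469 CPM against 6.70, 7.34 and 8.42 CPM (5.65 ± 0.35, adjusted p = 3.19e-05). Each of these genes was higher in every skin library than in any liver library. SCEL, coding for sciellin, had 247, 395 and 201 CPM in skin and 0.765, 0.292 and 0.744 CPM in liver. The members called higher in liver were the ceramide synthase CERS3 and cystatin A (CSTA). The latter had 27.4, 57.0 and 36.6 CPM in skin and 128, 113 and 102 CPM in liver, whereas a second gene of that symbol, LOC141129418, cystatin-A-like, was a skin marker with 959, 2075 and 1681 CPM in skin and 0.255, 0.438 and 0.710 CPM in liver. Of these calls in liver, 1 was made without liver library 2, and 0 without number 3 of both organs or with library totals, where CERS3 turned sign.

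Cell junctions and the attachment of the epidermis to its basement membrane followed. Of 63 listed symbols, 45 were tested, with 37 higher in skin, 2 in liver and 6 not passed, and a median of 2.47. PKP1, a desmosomal plaque protein of stratified epithelia, had 23493, 31125 and 16032 counts in skin and 0 in every liver library, at least 13213-fold higher. COL17A1, the collagen that anchors basal cells through hemidesmosomes, had 11267, 12490 and 4584 counts against 0, at least 5300.2-fold higher. Both were thus present in all skin libraries and without a count in liver. The tight junction gene CLDN4 had 396, 407 and 348 CPM in skin and 5.83, 7.67 and 10.7 CPM in liver (5.57 ± 0.34, adjusted p = 3.07e-05), and the epithelial adhesion gene EPCAM had 711, 734 and 540.4 CPM against 32.2, 31.5 and 28.1 CPM (4.43 ± 0.27, adjusted p = 3.30e-05). CLDN1, a claudin of the epidermal barrier, was at 478, 932 and 357 CPM in skin and 1.57, 0 and 0.271 CPM in liver. The opposite pattern was seen in GJB1, the gap junction protein of hepatocytes, with 0.108, 0.0942 and 0.265 CPM in skin and 62.6, 70.0 and 49.1 CPM in liver (-8.62 ± 0.45, adjusted p = 2.16e-05). The other member called higher in liver was cingulin (CGN), which had no such call, leaving 1 member, without skin library 1, liver library 2 or liver library 3.

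Epidermal transcription factors had the highest median of the lists matched by symbol. Of 47 listed symbols 38 were tested, of which 32 were higher in skin, 1 in liver and 5 did not pass; 17 were skin markers. The median was 7.88, or 5.80 with the 11 members at 0 liver counts set at their bound. Those 11 passed the count filter through their skin reads alone, which fixed their direction in advance. The count of 32 thus says little about them. TP63, the p53 relative required for stratified epithelium, had 185, 278 and 128 CPM in skin and 0.109, 0.731 and 0.643 CPM in liver (8.63 ± 0.74, adjusted p = 0.000118). KLF4, which acts in barrier formation in mice, had 104, 123 and 98.8 CPM in skin and 4.15, 2.67 and 3.25 CPM in liver (5.02 ± 0.26, adjusted p = 2.20e-05). ZNF750, a factor of terminal differentiation in human epidermis, had 7119, 9695 and 5392 counts against 138, 26 and 52, with liver library 1 above the others (5.83 ± 0.67, and 6.74 without that library). The homeobox gene DLX3 had 6723, 5512 and 3320 counts in skin and 0, 0 and 2 in liver, a ratio of 4364-fold (95% counting interval 1208 to 36034). MSX2 had 5692, 5537 and 2270 counts against 0, 0 and 3. The member higher in liver was KLF2, known as a factor of endothelium, with 12.4, 7.80 and 16.1 CPM in skin and 47.7, 37.0 and 35.8 CPM in liver (-1.73 ± 0.30, adjusted p = 0.00273).

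Signals of the WNT, hedgehog, notch and BMP families, which pattern skin and its appendages, were mostly higher in skin, with 34 of 54 tested members higher there, 6 in liver and a median of 2.33. WNT10B had 4142, 4942 and 3247 counts in skin and 0, 1 and 0 in liver. WNT11 had 26.7, 31.9 and 20.9 CPM in skin and 1.38, 1.75 and 0.981 CPM in liver (4.27 ± 0.31, adjusted p = 5.48e-05), and the secreted WNT inhibitor DKK2 had 1047, 941 and 1556 counts against 0 (at least 663-fold higher). In the other direction the WNT receptor FZD8 was at 0.377, 0.584 and 0.770 CPM in skin and 35.6, 50.9 and 38.4 CPM in liver (-6.18 ± 0.35, adjusted p = 2.57e-05). All 16 tested HOX genes, which hold positional identity along the body axis, were higher in skin, with a median of 4.87, or 4.38 with 3 members at their bound. Their levels were low, with a sum of 58.7, 72.1 and 73.8 CPM in skin and 6.05, 6.21 and 7.38 CPM in liver. HOXA4 had 13.4, 21.7 and 20.2 CPM in skin against 2.84, 2.52 and 2.40 CPM in liver (2.83 ± 0.25, adjusted p = 0.000132). A further 11 listed HOX genes in the table had too few counts to test. Of the 27 listed HOX genes in the table, 12 had 0 counts in every liver library. A gene with few liver reads passes the count filter through its skin reads alone. For such members the filter fixed the direction in advance, so the count of 16 says little about them.

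Granular glands of ranid frogs store antimicrobial and bioactive peptides that they release onto the skin. Of 79 tested genes that carried both a defence response and an extracellular region term in the annotation, 50 were higher in skin and 17 in liver, with a median of 4.56. These terms were chosen after values were seen. The 79 held 27 skin markers and 5 liver markers, which was 34.2% and 6.33% of them, and 18 of the 27 were annotated as non-coding. The 27 skin markers, which the marker rule itself sets apart from liver, summed to 1926, 7897 and 5740 CPM in skin, lowest in library 1. LOC141104652, annotated as resembling pelophylaxin-1, a ranid skin peptide, had 8049, 97837 and 27398 counts in skin and 0, 0 and 1 in liver, a ratio of 74778-fold (95% counting interval 13421 to 2953610), and reached 2756 ± 2966 FPKM in skin. Its neighbour LOC141104653 had 5721, 18818 and 10614 counts against 0, at least 6574-fold higher. In both, skin library 2 had the most reads. The bioactive peptide precursors TAC1, which codes for tachykinins, and NMB, for neuromedin B, were among the 27. TAC1 had 1007, 1026 and 797 counts in skin and 1, 0 and 0 in liver, and NMB had 157, 1841 and 650 against 0, 0 and 3. Palustrin-Ca, another named ranid peptide, had 6046 counts in skin library 3 and 0 in the other 5 libraries, and was not tested.

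Secreted mucin and other abundant skin products varied widely among the skin libraries. The integumentary mucin B.1-like gene LOC141131890 had 5780, 47680 and 16579 counts in skin and 0, 0 and 140 in liver, with all liver reads in library 3. Its difference was 8.20 ± 2.12 (adjusted p = 0.0174) and 17.22 without liver library 3, and the call was lost with no filter on low counts (adjusted p = 0.0542). LOC141110540, a PLA2 inhibitor and Ly6/PLAUR domain protein, had 40992, 12282 and 195975 counts in skin and 0 in liver, at least 46613-fold higher, with library 3 far above the others. LOC141116724, a calcium-binding S100-G-like protein, was more even, with 3010.2, 3183 and 4520.3 CPM in skin and 29.3, 12.8 and 28.3 CPM in liver (7.25 ± 0.52, adjusted p = 5.45e-05). It was second among skin markers with a named product, at 9068 ± 475 FPKM. Of the listed genes of gland secretion, 10 were tested, with 7 higher in skin, 3 in liver and a median of 3.34. SPDEF, a secretory cell transcription factor, had 336, 733 and 365 counts in skin and 0 in liver, and AGR2, a folding enzyme of mucous cells, had 636, 219 and 597 against 0. The members higher in liver were FOXA1, lysozyme (LYZ) and MUC13. The liver had its own defence peptides: the hepcidin-1-like genes LOC141110466 and LOC141110465 had 14580, 28942 and 29990 and 9572, 25536 and 23038 counts in liver and 0 in skin, and LEAP2, a liver antimicrobial peptide, had 2192, 4871 and 6048 counts against 0, 5 and 0.

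Ion and water transport genes, through which frog skin absorbs sodium and water, were higher in skin for 25 of 35 tested members, with 4 higher in liver and a median of 2.74. SCNN1A, the alpha subunit of the epithelial sodium channel, had 52.5, 59.0 and 60.3 CPM in skin and 0.328, 0.840 and 0.440 CPM in liver (6.73 ± 0.38, adjusted p = 2.61e-05). ATP6V1B1, a proton pump subunit of acid-secreting cells, had 1666, 2021 and 1988 counts against 0 (at least 1061-fold higher). LOC141127358, a sodium bicarbonate exchanger, had 10134, 13512 and 11451 counts in skin and likewise 0 in liver (at least 6564-fold). Water channels divided between the organs. AQP3 had 521, 313 and 245 CPM in skin and 21.3, 14.0 and 19.6 CPM in liver (4.29 ± 0.39, adjusted p = 0.000141), and AQP1 had 354, 251 and 323 against 13.0, 12.4 and 14.4 CPM (4.54 ± 0.26, adjusted p = 2.74e-05). AQP9, the glycerol channel of hepatocytes, had 10.1, 9.72 and 9.73 CPM in skin and 423, 398 and 306 CPM in liver (-5.25 ± 0.27, adjusted p = 2.05e-05), and AQP8 had 0, 0.169 and 0 CPM against 66.5, 52.4 and 38.5 CPM. No library of one organ overlapped the other for any of these channels.

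Beneath the epidermis, 44 of 53 tested genes of the dermal matrix were higher in skin, 2 were higher in liver and 7 did not pass, with a median of 3.25. COL1A1, the main dermal collagen chain, had 4213, 1834 and 6382 CPM in skin and 107, 187 and 144 CPM in liver (4.83 ± 0.57, adjusted p = 0.000477), and its partner chain COL1A2 had 2604, 1429.7 and 4558 CPM against 71.8, 137 and 113 CPM (4.74 ± 0.56, adjusted p = 0.000466). The skin libraries were ordered alike for both chains, lowest in library 2 and highest in library 3. POSTN, periostin, had the widest gap of the abundant matrix genes, with 613, 766 and 772 CPM in skin and 0.146, 0.402 and 0.237 CPM in liver (11.41 ± 0.51, adjusted p = 1.63e-05). FN1, fibronectin, which hepatocytes secrete into plasma, was reversed, with 151, 77.9 and 267 CPM in skin and 3695, 4259.7 and 2515 CPM in liver (-4.40 ± 0.55, adjusted p = 0.000641). Smooth muscle and pericyte genes were higher in skin for 10 of 14 tested members and higher in liver for 3, with a median of 2.89. Those higher in liver were ABCC9, DES and KCNJ8, and the KCNJ8 call was lost in 8 of the alternatives. ACTA2 had 505, 538 and 1146 CPM against 11.2, 16.9 and 18.2 CPM (5.56 ± 0.48, adjusted p = 0.000115) and CNN1 had 109.7, 165 and 157 CPM against 0.146, 0.292 and 0.135 CPM (9.54 ± 0.42, adjusted p = 1.63e-05). In whole tissue a cell type that is fewer in number and one with less RNA per cell cannot be told apart, here and for every cell type list below.

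Most nerve and pigment cell genes were higher in skin. Of 10 tested Schwann cell and nerve genes 8 were higher in skin and 1 in liver, with a median of 3.25. The member higher in liver was NCAM1, a cell adhesion gene, with 7.21, 8.51 and 7.82 CPM in skin and 188, 344 and 235 CPM in liver (-5.03 ± 0.32, adjusted p = 3.71e-05). Of 34 tested pigment cell genes, 22 were higher in skin and 9 in liver, with a median of 3.31. The genes of melanin synthesis were nearly absent from liver. TYR, the rate-limiting enzyme, had 433, 364 and 202 counts in skin and 0 in liver (at least 187-fold higher), and DCT had 1638, 3785 and 2435 against 2, 0 and 1 counts. PMEL, the melanosome scaffold, had 60.1, 109 and 109.8 CPM in skin and 0, 0 and 0.406 CPM in liver. MLANA had 896, 1134 and 909 counts against 0 (at least 549.6-fold). Summed over the pigment cell list, levels were 767.5, 809.6 and 877.5 CPM in skin and 875.6, 1039 and 999.4 CPM in liver. The members higher in liver included XDH and EDNRB. XDH, xanthine dehydrogenase, which also serves pteridine pigment and purine breakdown, had 12.3, 18.6 and 12.8 CPM in skin and 165, 370.0 and 446 CPM in liver (-4.49 ± 0.46, adjusted p = 0.000234), and EDNRB, an endothelin receptor, had 0.269, 0.0188 and 0.843 CPM against 104, 88.0 and 78.8 CPM.

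In the liver, secreted plasma proteins had the widest gap of any list. Of 46 listed symbols 23 were tested, and 20 were higher in liver, 2 in skin and 1 did not pass, with a median of -14.13. Their summed level was 205700, 201900 and 176400 CPM in liver and 408, 361 and 1106 CPM in skin. Albumin, LOC141108620, the main plasma protein, had 0.179, 0.0942 and 0.313 CPM in skin and 118583, 123748 and 112644 CPM in liver (-19.21 ± 0.84, adjusted p = 1.63e-05). The protease inhibitor LOC141105855, an alpha-2-macroglobulin-like protein, followed it with 0.628, 2.41 and 2.36 CPM in skin and 101800, 92105 and 89177 CPM in liver (-15.68 ± 0.93, adjusted p = 2.95e-05). Retinol binding protein, RBP4, had 111, 185 and 261 CPM in skin and 13260.1, 15901 and 13959.9 CPM in liver (-6.27 ± 0.48, adjusted p = 7.31e-05). By FPKM the order in liver was albumin at 41701 ± 828, LOC141105855 at 14592 ± 761, RBP4 at 10418 ± 939, the fetuin-B-like LOC141139810 at 9671 ± 754 and APOC1 at 9089 ± 1299 (mean ± SD, n = 3). The SD ranges of RBP4, LOC141139810 and APOC1 overlapped, so the order among them is uncertain. APOB, the core of very low density lipoprotein, had 158687, 208148 and 131825 counts in liver and 0 in every skin library, at least 296268-fold higher. The gene paired with the symbol APOA1, LOC141110776, has an uncharacterised product and was low, with 24, 30 and 40 counts in liver and 0 in skin. Uncharacterised genes with nearby locus numbers, LOC141110777, LOC141110778 and LOC141110780, had means of 1985, 5160 and 9008 FPKM in liver. Whether any of them codes for an apolipoprotein was not tested. The 2 members higher in skin were SERPINF1, a secreted factor also made by connective tissue, with 233, 88.7 and 601 CPM against 0.328, 0.183 and 0.846 CPM, and SHBG, with 131, 12 and 149 counts against 1, 0 and 0; without library number 3 of both organs SHBG was not called.

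Complement and coagulation factors had the next lowest list median, -8.34, with 29 of 35 tested members higher in liver and 3 in skin. The fibrinogen chains, the substrate of the clot, had almost no skin reads. FGB had 1, 1 and 0 counts in skin and 403811, 295423 and 255748 in liver, FGG had 0, 0 and 1 against 321542, 227474 and 192146, and the alpha chain-like LOC141112541 had 1, 0 and 0 against 407806, 269491 and 231578. In all 3 chains liver library 1 was highest. Complement C9, the pore-forming end component, had 0.395, 0.0753 and 0.506 CPM in skin and 7359.7, 6178 and 4868 CPM in liver (-14.21 ± 0.93, adjusted p = 3.90e-05). The 3 members higher in skin were VWF, F3 and F13A1. VWF, the platelet-binding factor of endothelium, had 113, 116 and 143 CPM in skin and 12.2, 16.2 and 18.1 CPM in liver (3.00 ± 0.24, adjusted p = 8.44e-05), F3, tissue factor, had 72.5, 101 and 37.2 CPM against 3.90, 12.6 and 13.5 CPM (2.81 ± 0.56, adjusted p = 0.00579), and F13A1 had 16.3, 25.5 and 17.4 CPM against 4.08, 4.57 and 3.99 CPM (2.23 ± 0.24, adjusted p = 0.000309).

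Genes of nitrogen metabolism were mostly higher in liver. Of 46 tested genes of the urea cycle and amino acid breakdown, 38 were higher in liver, 3 in skin and 5 did not pass, with a median of -3.64. CPS1, which commits ammonia to urea, had 0.0179, 0.0565 and 0.169 CPM in skin and 15166, 16260.1 and 14778 CPM in liver (-17.56 ± 0.93, adjusted p = 2.22e-05). The cycle enzyme ASL had 20.8, 18.2 and 26.3 CPM in skin and 1680.1, 2083 and 1753 CPM in liver (-6.40 ± 0.34, adjusted p = 2.30e-05). AGXT, which clears glyoxylate, had 61239, 88271 and 82303 counts in liver and 0 in skin (at least 137727-fold higher). The betaine-homocysteine methyltransferase LOC141134188 was abundant in both, with 874, 525 and 2081 CPM in skin and 6112, 5619.6 and 5853 CPM in liver (-2.34 ± 0.54, adjusted p = 0.0101). GLUL, glutamine synthetase, which fixes ammonia outside the urea cycle, was a skin marker, with 125, 74.1 and 164 CPM in skin and 0.802, 0.914 and 1.18 CPM in liver (6.96 ± 0.41, adjusted p = 2.95e-05). Of 6 tested glutamine synthetase genes, 3 were higher in skin and 3 did not pass, and the most abundant of them in liver, LOC141108265, had 95.5, 193 and 114 CPM in skin and 185, 312 and 306 CPM in liver (adjusted p = 0.0577).

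Genes of glucose release had wider gaps than those of glycolysis among the members named here. Of 36 tested glucose and glycogen genes 20 were higher in liver and 7 in skin, with a median of -0.84, and with library totals 13 were higher in each organ. G6PC1, the last step of glucose release, had 0.628, 0.584 and 0.289 CPM in skin and 3016, 5183 and 3585 CPM in liver (-12.92 ± 0.62, adjusted p = 1.77e-05). PCK1, the control point of gluconeogenesis, had 14627, 78556 and 65034 counts in liver and 0 in skin (at least 94001-fold higher), with liver library 1 lowest. The glycolytic enzyme GAPDH differed far less, with 779, 687 and 1185 CPM in skin and 1910.4, 2517 and 2386 CPM in liver (-1.36 ± 0.32, adjusted p = 0.0115), a call that was not made with library totals, with limma at a pseudocount of 1 or without liver library 2 (adjusted p = 0.0538). Among members higher in skin were isoforms of other tissues: ALDOC, the brain form of aldolase in mammals, had 44.5, 34.2 and 53.7 CPM against 0.291, 0.438 and 0.237 CPM (7.09 ± 0.34, adjusted p = 1.83e-05), and SLC2A4, the insulin-responsive glucose carrier, had 153, 122 and 112 counts against 0, 0 and 1.

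Lipid and bile acid genes were mostly higher in liver. Of 42 tested genes of fatty acid and lipoprotein metabolism, 28 were higher in liver and 4 in skin, with a median of -2.10. The hepatic lipase gene LIPC had 0, 0 and 1 counts in skin and 35824, 52853 and 56093 in liver. FABP1, the liver fatty acid binding protein of mammals, was one of the exceptions, with 39, 23 and 66 counts in skin and 0 in liver, although 2 other genes of that symbol were higher in liver. Of 11 tested genes of bile acid synthesis and transport, 10 were higher in liver and none in skin, with a median of -3.87. CYP7A1, the rate-limiting enzyme of bile acid synthesis, had 0, 1 and 0 counts in skin and 1111, 1264 and 1209 in liver, a ratio of 6388-fold (95% counting interval 1146 to 252385). SLC27A2, a bile acid and fatty acid CoA ligase, had 0.0179, 0.0753 and 0.0722 CPM against 532, 891 and 720.1 CPM (-13.61 ± 0.61, adjusted p = 1.63e-05). Cholesterol synthesis showed less of a gap, with 8 of 19 tested genes higher in liver, 1 in skin and a median of -0.39. That count was 4 without liver library 2 and 5 without liver library 3, and with library totals it was 2, with 8 higher in skin.

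Of 19 tested genes of xenobiotic metabolism 14 were higher in liver and 1 in skin, with a median of -2.28. CYP1A1, an enzyme induced by aromatic compounds, had 0.735, 1.94 and 1.52 CPM in skin and 718, 683 and 438 CPM in liver (-8.78 ± 0.55, adjusted p = 3.36e-05). MGST1, a microsomal glutathione transferase, had 4.14, 3.56 and 11.1 CPM against 319, 322 and 296 CPM (-5.64 ± 0.54, adjusted p = 0.000173). Iron and heme genes were higher in liver for 12 of 26 and in skin for 2, or 1 without skin library 2, liver library 1 or liver library 2, with a median of -0.78. HPX, the heme scavenger of plasma, had 0.520, 0.132 and 0.217 CPM in skin and 12232, 5341 and 4444 CPM in liver (-14.60 ± 0.99, adjusted p = 4.47e-05), and HMOX1, which breaks heme down, had 10.9, 7.01 and 13.2 CPM against 294, 302 and 297 CPM (-4.84 ± 0.32, adjusted p = 4.25e-05). Peroxisomal and antioxidant genes were higher in liver for 21 of 46 and in skin for 8, with a median of -0.64. The liver count was 13 without liver library 2, and with library totals the counts were 6 in liver and 19 in skin.

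The transcription factors of hepatocyte identity were higher in liver for 19 of 22 tested members and higher in skin for none, with a median of -4.48. FOXA2, a pioneer factor of liver development, had 772, 564 and 496 counts in liver and 0 in skin (at least 1088-fold higher). GATA4 had 700, 979 and 854 counts in liver and 0, 1 and 0 in skin. NR1I3, the nuclear receptor that induces drug-metabolising enzymes, had 1.49, 1.54 and 2.89 CPM in skin and 43.1, 35.9 and 34.5 CPM in liver (-4.26 ± 0.33, adjusted p = 7.35e-05). HNF4A, a central regulator of hepatocyte genes, had 1.54, 0 and 0 CPM in skin and 16.8, 14.6 and 9.57 CPM in liver, with reads in skin library 1 only. Its difference was -4.69 ± 1.45 (adjusted p = 0.0349) and -11.94 without skin library 1, and the call was lost in 10 of the alternatives, among them without skin library 2, skin library 3 or any 1 liver library (adjusted p = 0.0556, 0.0537, 0.0749, 0.0888 and 0.0728).

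**Figure D3:**
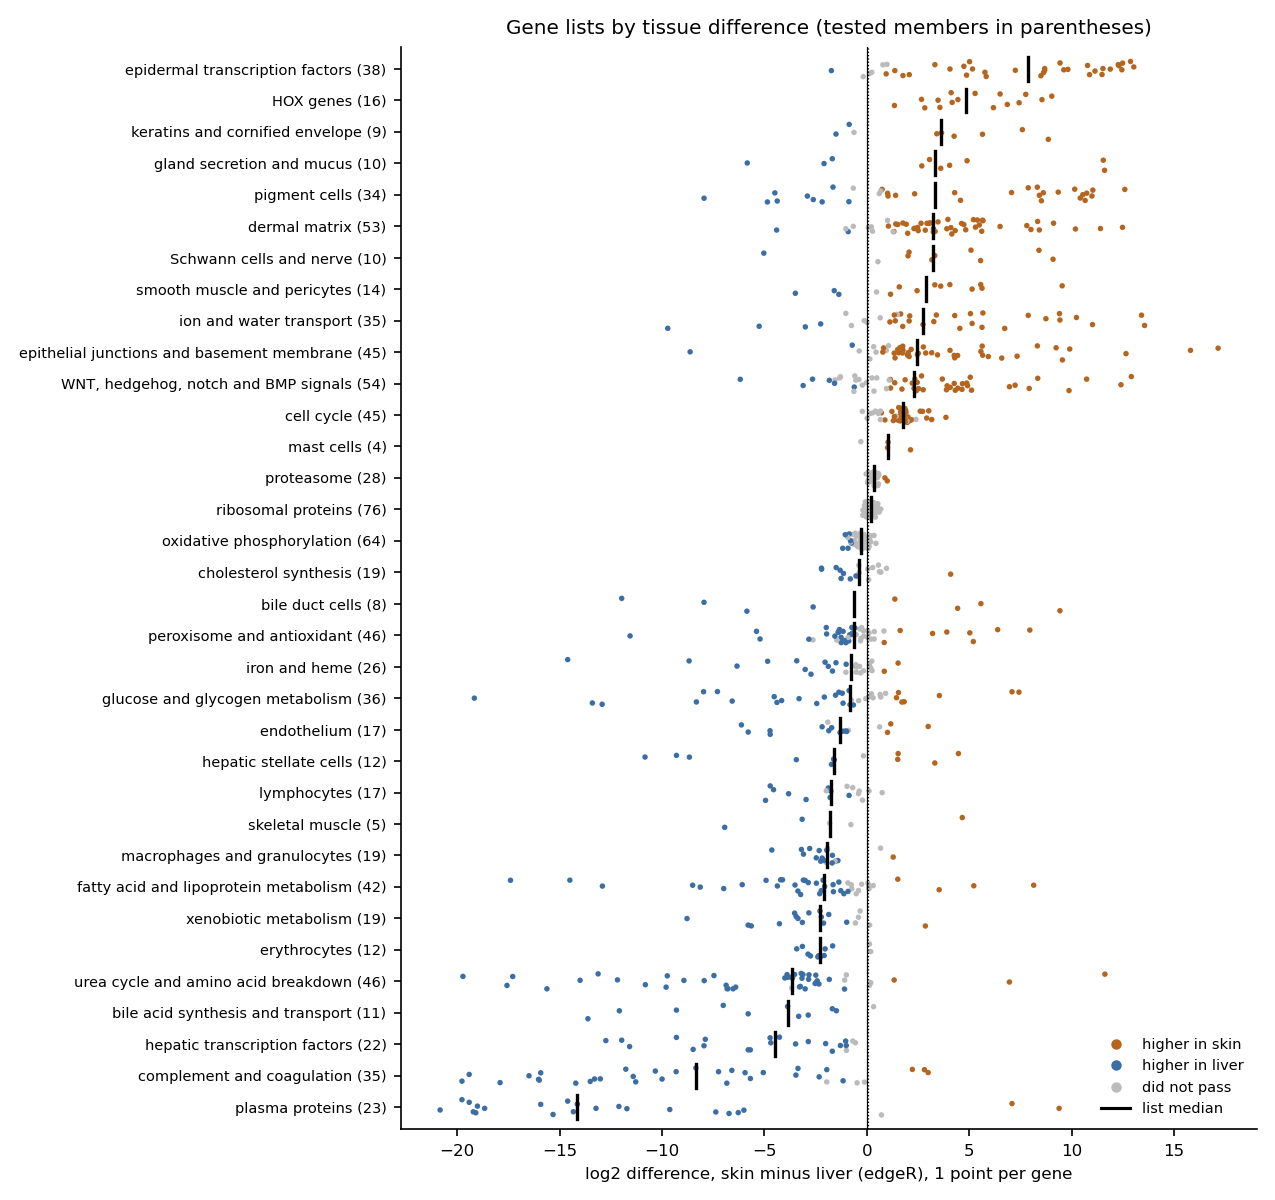
Each row is a gene list and each point a tested member, placed by its log2 difference of skin minus liver; orange and blue points were called higher in skin and in liver, grey points did not pass, black bars are list medians, and the dotted line beside 0 is the median of all tested genes (0.08). Lists run from epidermal transcription factors at the top (7.88) to plasma proteins at the bottom (-14.13), and genes with 0 counts in 1 organ are drawn at their fitted value.

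Markers of cell types shared by both organs or foreign to them were counted in the same way. Endothelial genes were higher in liver for 11 of 17 tested members and in skin for 3, with a median of -1.30; the liver count was 7 without liver library 2 and 6 with library totals, and the skin count was 1 without skin library 1 or 3 or liver library 2 or 3. The scavenger receptors STAB1 and STAB2 of liver sinusoids had 196, 156 and 148 CPM and 424, 404 and 330.1 CPM in liver, and 11.0, 2.84 and 5.10 CPM and 6.33, 0.113 and 10.2 CPM in skin. Macrophage and granulocyte genes were higher in liver for 14 of 19, with 1 higher in skin and a median of -1.95. That liver count was 9 without skin library 3 or liver library 1, 8 without number 3 of both and 6 with library totals. The only member higher in skin, CSF3R, lost its call without skin library 1 or 2 or liver library 1 or 2, in 1 fit of all 18 libraries and with liver libraries 2 and 3 summed, and the skin count was 2 without skin library 3. Skin library 1 had the most macrophage transcript of the skin libraries, a summed 830 CPM against 253 and 295 CPM in the other two, and liver libraries had 3358, 1990 and 1727 CPM. CTSS, a lysosomal protease of antigen-presenting cells, had 259.8, 71.7 and 68.2 CPM in skin and 1302, 779 and 679 CPM in liver (-2.79 ± 0.62, adjusted p = 0.00913). Lymphocyte genes were higher in liver for 9 of 17 and in skin for none, with a median of -1.75. The liver count was 5 without number 3 of both organs or with library totals, and 1 gene was higher in skin without liver library 1. Summed levels overlapped, at 3380, 1394 and 1306 CPM in skin and 3604, 2365 and 1955 CPM in liver. Counting products described as like a listed member, 14 of 37 were higher in liver, 2 were higher in skin and 21 did not pass, with a median of -0.87. The B cell receptor gene CD79B had 4.74, 2.90 and 3.37 CPM in skin and 164, 77.3 and 98.1 CPM in liver (-4.94 ± 0.39, adjusted p = 8.12e-05).

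Erythrocyte genes were higher in liver for 10 of 12 tested members and in skin for none, with a median of -2.30. SLC4A1, the anion exchanger of red cells, had 6.30, 9.38 and 10.4 CPM in skin and 38.4, 35.2 and 50.3 CPM in liver (-2.25 ± 0.26, adjusted p = 0.000448). The abundant adult-type hemoglobin genes were less separated. Hemoglobin beta, LOC141146624, had 58518, 28400 and 177893 counts in skin and 137636, 171433 and 258785 in liver, with skin library 3 inside the liver range by raw counts. By CPM the groups did not overlap, with 1050, 535 and 4283 CPM in skin and 5015, 6264 and 8754 CPM in liver. The gene did not pass (-1.77 ± 0.76, adjusted p = 0.102). It did without skin library 3, at -3.09 (adjusted p = 0.00287), without number 3 of both organs, with DESeq2 and in 1 fit of all 18 libraries. By contrast a pair of genes resembling hemoglobin alpha-3 had counts in skin and 0 in liver. LOC141145314 had 15580, 10789 and 5024 counts in skin and 0 in liver (at least 5871-fold higher), and LOC141145316 had 1521, 7933 and 1155 against 0 (at least 1984-fold). The wild-type eyes held LOC141145314 at a mean of 0 FPKM, against 159 FPKM in skin, and LOC141145316 at 0.0344 FPKM against 92.5 FPKM. Hepatic stellate cell genes divided, with 7 of 12 higher in liver and 4 in skin, as did those of bile duct cells, with 4 of 8 each way. Of 20 listed skeletal muscle genes 5 could be tested, and the list summed to 4.45 to 13.5 CPM in skin and 38.8 to 45.1 CPM in liver. Of 4 tested mast cell genes 3 were higher in skin, GATA2, KIT and MITF, and MITF lost its call in 7 of the alternatives. Counting products described as like a listed member, 3 of 7 were higher in skin and 2 in liver.

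Few genes of the machinery that every cell uses were called. None of 76 tested ribosomal protein genes was called with TMM scaling, with a median of 0.21. Their summed level was 104300, 120000 and 201200 CPM in skin and 108900, 131200 and 141300 CPM in liver, so that skin library 3 stood above all others. At an unadjusted p under 0.05 0 of the 76 passed, DESeq2 called 0, and 75 were higher in skin with library totals. Of 64 tested oxidative phosphorylation genes 6 were higher in liver and none in skin, with a median of -0.27; the liver count was 1 without liver library 2 or 3, 2 without skin library 2, 3 without skin library 1 and 23 without skin library 3, and with library totals 33 were higher in skin. Of 28 proteasome genes 2 were higher in skin, with a median of 0.35. That count was 8 without skin library 2, 0 without skin library 1 or 3 or liver library 2 or 3, and 27 with library totals. Cell cycle genes were called more often. Of 45 tested, 32 were higher in skin and none in liver, with a median of 1.76, although the count was 17 without liver library 2 and 15 without number 3 of both. RRM2, which makes deoxynucleotides for replication, had 64.6, 47.0 and 65.2 CPM in skin and 4.52, 4.46 and 3.18 CPM in liver (3.86 ± 0.25, adjusted p = 3.89e-05), and the replication clamp PCNA had 66.5, 44.7 and 69.2 CPM against 23.6, 17.4 and 14.2 CPM (1.71 ± 0.27, adjusted p = 0.002).

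The pathway descriptions deposited with the counts were ranked by the median difference of their tested genes, over 160 groups with at least 15 tested genes. The groups with the highest medians were nicotinate and nicotinamide metabolism (6.23, or 4.29 with genes at their bound), cornified envelope formation (3.13), globo and isoglobo glycosphingolipid synthesis (1.68), ECM-receptor interaction (1.65), cytoskeleton in muscle cells (1.57), lacto and neolacto glycosphingolipid synthesis (1.23), mucin type O-glycan synthesis (1.08) and adrenergic signalling in cardiomyocytes (1.04). Of 140 tested genes of cornified envelope formation, 93 were higher in skin and 18 in liver, and its most abundant members were the keratins described above. Both glycosphingolipid groups were led by LOC141110702, a fucosyltransferase 2-like gene, with 29.1, 51.4 and 21.4 CPM in skin and 0.0364, 0 and 0.0677 CPM in liver. The mucin type O-glycan group was led by LOC141131520, an N-acetylglucosaminyltransferase 3-like gene, with a mean of 25.7 FPKM in skin and 0.0287 FPKM in liver. The muscle groups were led by matrix and actin genes, among them vimentin and ACTC1, with 327, 394 and 485 CPM in skin and 0.364, 0.548 and 0.541 CPM in liver (9.68 ± 0.38, adjusted p = 1.63e-05).

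The groups with the lowest medians all concern metabolism or absorption: glycine, serine and threonine (-3.01), phenylalanine (-2.81), the folate carbon pool (-2.29), primary bile acid synthesis (-2.17), folate transport (-1.97), arginine synthesis (-1.95), vitamin digestion and absorption (-1.67) and tryptophan (-1.66). In glycine, serine and threonine metabolism, 33 of 39 tested genes were higher in liver and 4 in skin. GAMT, which makes creatine, had 8.88, 10.4 and 16.4 CPM in skin and 1325, 1385 and 1452 CPM in liver (-6.87 ± 0.39, adjusted p = 2.66e-05). Tryptophan metabolism had 35 of 47 tested genes higher in liver and 8 in skin. AOC1, an amine oxidase, had 105800, 70771 and 45491 counts in liver and 0 in skin (at least 131933-fold higher). In arginine synthesis GOT2, a mitochondrial transaminase, had 133, 111 and 135 CPM in skin and 2075, 2459.6 and 2139 CPM in liver (-4.14 ± 0.29, adjusted p = 4.98e-05). The vitamin group was led by uncharacterised genes next to each other, of which LOC141110780 had 344260, 311832 and 340662 counts in liver and 0 in skin.

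The rank of the nicotinate group rested on a gene family. Of its 87 tested genes, 49 were described as nicotinamide or indolethylamine N-methyltransferase-like, enzymes that transfer a methyl group to small amines; 44 of these were higher in skin and 5 in liver, with a median of 10.59, or 8.00 with genes at their bound. The other 38 genes had 13 higher in skin, 15 in liver and a median of -0.15. Over all genes, 56 such methyltransferase-like genes were tested, of which 46 were higher in skin, 9 in liver and 1 did not pass. They held 23 skin markers, 16 of them with 0 liver counts, and 5 liver markers. Other members called higher in skin also had 0 liver counts. For members with 0 counts in 1 organ the count filter fixed the direction in advance, as for the HOX genes. The counts of 44 and 46 higher in skin thus say little about them. The skin markers of the family summed to 391, 1504 and 1704 CPM in skin and 0.0364, 0.0365 and 0.440 CPM in liver. The liver markers of the family summed to 2061, 2002 and 1919 CPM in liver and 0, 0.0565 and 0.0241 CPM in skin. The marker rule itself set both sums apart between organs, and within skin, library 1 was lowest. LOC141111145 had 11150, 41635 and 15434 counts in skin and 0, 0 and 4 in liver, and LOC141111106 had 0 counts in skin and 10490, 25075 and 26682 in liver. The same caution on near copies applies as for the keratins.

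Such a split was also seen among genes that share an annotated symbol, but in a minority of symbols. A shared symbol does not show that genes are copies. Under BDH1, for instance, the products were C-signal-like and D-beta-hydroxybutyrate dehydrogenase-like. Most of the 99 annotated symbols held by at least 2 marker genes had markers of 1 organ only. Held by both a skin marker and a liver marker were 20 symbols. The catalase pair was one: LOC141111968 had 7000, 6559 and 6508 counts in skin and 162101, 167975 and 144580 in liver (-5.38 ± 0.34, adjusted p = 3.39e-05), whereas CAT had 4483, 5063 and 2710 counts in skin and 5, 12 and 10 in liver (7.96 ± 0.38, adjusted p = 1.77e-05). HPD, a dioxygenase of tyrosine breakdown, had 3446, 1913 and 1864 counts in skin and 0, 1 and 0 in liver, while LOC141128905, with the same product name, had 224, 119 and 205 in skin and 12262, 11469 and 10645 in liver (-6.78 ± 0.41, adjusted p = 3.16e-05). The HPD copies thus each had most reads in the organ where the other had few, whereas the catalase LOC141111968 had more reads than CAT in skin as well. Ceruloplasmin, the copper carrier of plasma, split between LOC141139611, with 12655, 15592 and 26228 counts in skin and 1, 11 and 26 in liver, and LOC141139613, with 24, 3 and 1 in skin and 33040, 15657 and 11915 in liver. Fibulin-7 gave the cleanest pair: FBLN7 had 925, 1007 and 801 counts in skin and 0 in liver, and LOC141112669 had 0 in skin and 218, 613 and 609 in liver. In the CYP2G1 group of P450 genes, 1 was a skin marker and 11 were liver markers, 8 of them with 0 skin counts.

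**Figure D4:**
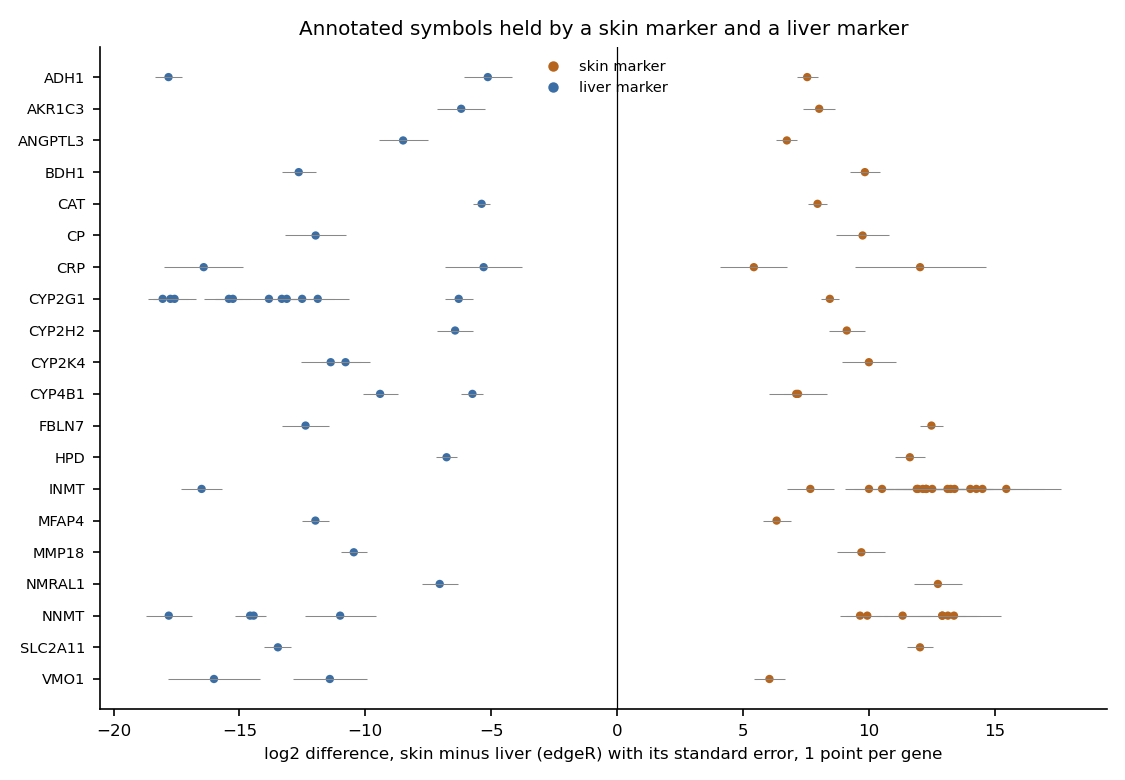
For each of the 20 annotated symbols held by both a skin marker (orange) and a liver marker (blue), the log2 difference of skin minus liver is plotted for every marker gene of that symbol, with its standard error. Every symbol has points on both sides of 0, from 1 gene a side for CAT and HPD to 16 skin markers and 1 liver marker for INMT; points for genes with 0 counts in 1 organ depend on the prior count.

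Marker levels were also looked up in the wild-type eyes, which entered none of these tests. At 1 FPKM or more in the mean of the 3 eye libraries were 340 of the 679 skin markers and 141 of the 550 liver markers. The share of all tested genes at that level was not counted, so these counts do not show that eyes resemble skin. The median eye level was 1.01 FPKM for the skin markers, against 20.01 FPKM in skin, and 0.0816 FPKM for the liver markers, against 42.7 FPKM in liver. In the eyes 63 skin markers and 18 liver markers exceeded their own organ's mean. PMEL was one, at 382 FPKM in eyes and 51.5 FPKM in skin. LOC141114336, the leading keratin, was at 19.4 FPKM in eyes against 13382 FPKM in skin.

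The albino libraries, none of which the wild-type comparison used, allowed the same test to be repeated. In albino skin against albino liver, 24% of tested genes were higher in skin and 21.5% higher in liver. Of the 679 wild-type skin markers, 666 could be tested there, 655 were called higher in skin and 482 met the whole marker rule. Of the 550 liver markers, 543 could be tested, 539 were called higher in liver and 472 met the rule. The fitted direction, whether called or not, was opposite for 1 skin marker (LOC141102547), an uncharacterised gene, and for none of the liver markers. That gene had 37.8, 16.6 and 904 CPM in wild-type skin and 3.10, 0.438 and 0 CPM in wild-type liver, a difference of 8.09 ± 2.26 with skin library 3 far above the others, against -6.39 in albino libraries; the difference between genotypes did not pass (adjusted p = 0.0635).

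**Figure D5:**
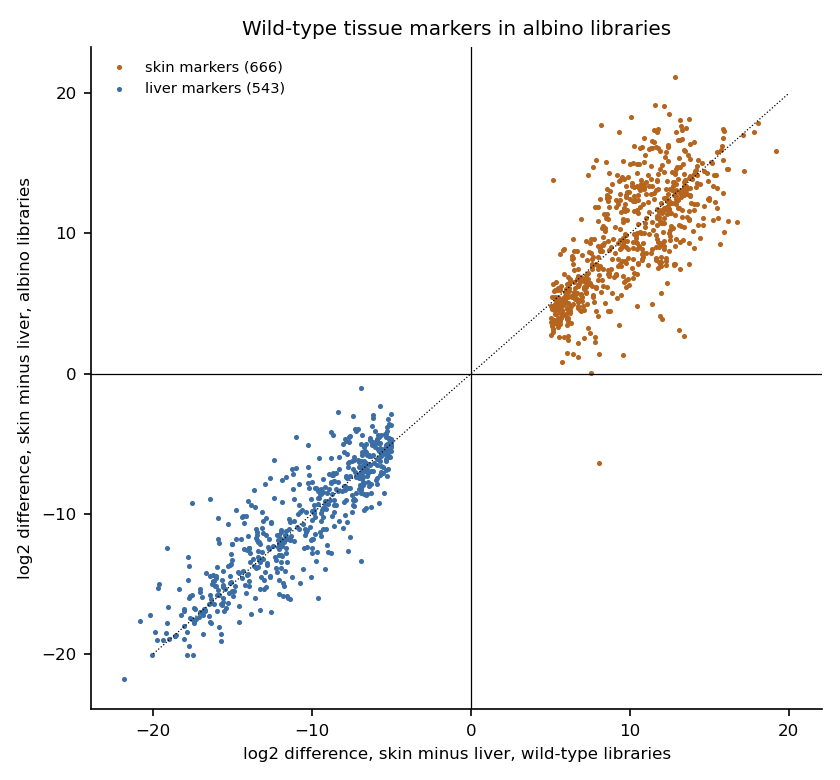
Each point is a wild-type tissue marker that could be tested in the albino libraries, 666 of skin (orange) and 543 of liver (blue), with its log2 difference of skin minus liver in wild-type libraries on the x axis and in albino libraries on the y axis; the dotted line marks equality. LOC141102547 lies at -6.39 on the y axis, the other skin markers lie above 0 there with 1 close to it, and the liver markers shown lie below 0.

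A direct test of whether the skin minus liver difference depended on genotype (tissue by genotype interaction in edgeR, 18153 genes) passed for 49 genes, 0.27% of those tested. The count was 10 without wild-type liver library 2, 15 without wild-type liver library 3 or albino skin library 3, 16 without albino liver library 3, 25 without albino liver library 2, 32 without albino skin library 2 and 78 without wild-type liver library 1. Outside the named genes, the lowest adjusted p of the interaction were those of PRRT3 and INHBA. PRRT3 had a difference of 1.64 in wild-type and 7.13 in albino libraries (adjusted p = 0.000169). INHBA had 3.46 and -0.97 (adjusted p = 0.00328). SLC27A2, described above, was among the 49, with a wild-type difference of -13.61 ± 0.61 and an albino difference of -9.51 (adjusted p of the interaction = 0.0386). Its wild-type skin libraries held few reads of it, so the size of that difference is uncertain.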

How the data were processed

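The authors deposited whole-number read counts per gene and FPKM values for 18 libraries, 3 in each group of tissue and genotype; HISAT2 and HTSeq are named, per the submitters' processing notes, without versions. The sources used here name no genome build, strandedness or handling of reads mapped to several places. The deposited FPKM are counts per kilobase of a gene length and per 1e+06 counts of the library, as a check of both files showed. The members and gene lists were chosen with earlier results of these data known.

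Counts of the 6 wild-type skin and liver libraries were filtered with filterByExpr and scaled with TMM in edgeR 4.0.16 (R 4.3.3), and 16919 of 24636 genes were tested by quasi-likelihood with Benjamini-Hochberg adjustment at 0.05. All 24636 identifiers matched a RefSeq gene table of assembly ASM4218655v1, used for names and neighbours alone. Folds against 0 counts used a floor of 3 counts over the 3 libraries of an organ, and counts of 1 to 3 were given as ratios with exact 95% intervals; both cover counting error only. List medians at the bound replace such fitted values. Lists were described by counts and medians, without a test. In every list, group and family, a gene with 0 counts in 1 organ passed the filter through the other organ alone. Its direction was thus fixed in advance. Genes were named by rank of FPKM among markers, by difference among markers with at least 100 CPM, by level among called list members, from a short list given whether called or not, and by up to 8 pathway groups each way; other genes, from the keratin, peptide, hemoglobin, methyltransferase and split-copy families, were chosen after their values were seen. The fits were tested on simulated counts. Alternatives were RLE scaling, library totals, no filter, a replicate block, DESeq2 1.42.0, 1 fit of all libraries, limma 3.58.1 on log2 FPKM with a pseudocount of 1 or 0.1, liver libraries 2 and 3 summed, each library left out, and, chosen after seeing the data, number 3 of both organs left out and products described as like a list member added. No promoter or protein sequence was used here. Some genes that met the rule for naming are not reported here.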

Additional observations from a re-analysis of the deposited data

Results flagged for a closer look

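For 5 of the named genes the skin minus liver difference itself differed between genotypes (edgeR interaction test over 18153 genes). The change, albino minus wild-type on the log2 scale, was -4.85 for LRAT, a retinol esterifying enzyme listed with hepatic stellate cells, whose difference was 1.53 in wild-type and -3.37 in albino libraries (adjusted p = 0.00339). It was -4.52 for LOC141147649, angiopoietin-related protein 3-like, at 6.74 against 2.17 (adjusted p = 0.00629). It was -6.54 for LOC141132848, an aldo-keto reductase 1C3-like gene, at 8.02 against 1.43 (adjusted p = 0.0322). For LOC141133562, vitelline membrane outer layer protein 1-like the change was -4.55, from 6.05 to 1.44 (adjusted p = 0.0351). For SLC27A2, which had few wild-type skin reads, it was 4.15, from -13.61 to -9.51 (adjusted p = 0.0386). The fitted sign of LRAT changed, but its wild-type call (adjusted p = 0.0353) was lost in 8 of the alternatives, with an adjusted p of up to 0.145, among them without skin library 2 or 3 or any 1 liver library. The other 4 kept their sign, although LOC141132848 did not pass in albino libraries (adjusted p = 0.0967). These calls stood on an interaction count that moved between 10 and 78 genes when 1 library was left out.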

How the results depend on the processing

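With library totals, 8813 genes were higher in skin and 1757 in liver; with limma on log2 FPKM they were 8573 and 1872 with a pseudocount of 1 and 8826 and 1899 with 0.1. With that pseudocount of 1, which shrinks differences of low genes, markers fell to 499, 243 of skin and 256 of liver. RLE scaling, no filter, DESeq2 and 1 fit of all 18 libraries gave 7492, 7494, 8381 and 9309 called genes. Leaving out each library in turn gave 5973 to 7452 called genes, 3464 to 4197 higher in skin, 2509 to 3314 in liver, 1181 to 1251 markers (636 to 681 of skin, 536 to 571 of liver), 1173 to 1189 markers repeated in albino libraries and 10 to 78 genotype interactions. Without number 3 of both organs 5630 genes were called and 1216 markers found. Liver libraries 2 and 3 were the most alike, with 7 genes read in one and near absent from the other, against 77 and 85 for the other liver pairs; with both summed as 1 sample 6180 genes were called.

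The labels do not say whether equal numbers are the same animal, so the numbers were not taken as pairs. Same-numbered skin and liver libraries deviated together with correlations of 0.384, 0.236 and 0.0732 over genes. Unlike numbers ran from -0.329 (skin 1 with liver 3) to 0.263 (skin 2 with liver 3). With the replicate block 7734 genes were called (4269 in skin, 3465 in liver), with 1237 markers (676 and 561). Of the wild-type markers 1203 were then repeated in albino libraries, and there were 39 interactions. Under the block hemoglobin beta, LOC141146624, passed at -2.28 (adjusted p = 0.0194), as did 2 further hemoglobin genes, and 5 named genes lost their call, among them CSF3R (adjusted p = 0.0669).

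Of 376 named genes 9 turned sign, all from a difference between -0.53 and -0.91. With library totals, limma at 1 and limma at 0.1 in turn, the values were 0.0928, 0.0489 and 0.0493 for CERS3, 0.21, 0.14 and 0.19 for CGN, 0.40, 0.32 and 0.37 for IDI1, 0.28, 0.30 and 0.31 for KRT18, 0.13, 0.10 and 0.10 for NDUFA4, 0.0083, 0.014 and 0.014 for PRDX3, and 0.14, 0.14 and 0.14 for UQCRFS1. With library totals alone NDUFA8 was at 0.014 and P4HA1 at 0.0308. The cause was not tested. Fitted differences of genes with a few counts in 1 organ depend on that organ's single libraries; at this depth a count of 0 does not show that a gene is silent.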
